A study of Mus musculus with 4 samples.

Results

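The interferon-stimulated genes described here were 43 protein-coding genes taken by symbol from the deposited gene list of 36601 genes. They were listed by name as textbook targets of the interferons. All 43 were found in both deposited matrices. By role they comprised 3 genes of ISG15 conjugation (ISG15, USP18, HERC5), 4 IFIT genes, 3 IFITM genes, 8 antiviral effectors (MX1, MX2, OAS1, OAS2, OAS3, OASL, RSAD2, EIF2AK2), 4 guanylate-binding proteins (GBP1, GBP2, GBP4, GBP5), 4 regulators (STAT2, IRF1, IRF7, IRF9), 2 sensors of viral RNA (DDX58, IFIH1) and 15 other effectors.

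They were measured by single-cell RNA sequencing of live human CD45+ cells, CD45 being the common leukocyte surface marker, sorted from MDA-MB-231 tumors of humanized MISTRG mice. MISTRG mice lack their own lymphocytes and carry human growth factor genes. In both groups the animals were irradiated as pups and engrafted with fetal liver CD34+ stem cells, and MDA-MB-231, a human triple-negative breast cancer line, was injected into the mammary fat pad. In the treated group, 7 mice drank maraviroc, a small-molecule drug, for 10 days from day 21 after tumor injection, and the other 7 mice were left untreated; tumors of both groups were taken on day 31. Each mouse carried its own hashtag antibody, and the mice were run in 2 droplet reactions that each held both groups. The values therefore describe the human leukocytes of 1 xenograft line in a mouse host. How many stem cell donors the mice shared is not given in the sources used here, so p-values describe these mice only. For treatment they measure the spread between mice. For class and state contrasts, where the mouse is a block, they measure how far the difference within a mouse varied over mice.

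Type I interferons (interferon alpha and beta) signal through IFNAR1 and IFNAR2 to a transcription factor complex that includes STAT2 and IRF9, which binds and switches on most of these genes. Interferon gamma, made mainly by T and NK cells, signals through IFNGR1 and IFNGR2, and is the stronger inducer of IRF1 and the guanylate-binding proteins. The products block viral entry (IFITM proteins), bind foreign RNA (IFIT proteins), degrade RNA (the OAS family, through RNase L), or tag proteins with the ubiquitin-like ISG15. In tumors, macrophages that express them together with the chemokine CXCL10 are a recurrent myeloid state.

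The matrices held 29120 and 13582 barcodes with 133089612 and 175447534 UMIs (counted RNA molecules), and the median barcode held 2764 UMIs in reaction 1 and 10204.5 in reaction 2. The reactions shared 136 barcode sequences. After filters and hashtag assignment, 19817 cells remained, 10201 from untreated and 9616 from maraviroc mice. Cells were gated by markers that include none of the members, into 4114 macrophages, 2261 monocytes, 461 dendritic cells, 3403 T cells, 1455 NK cells, 144 B cells, 138 plasmacytoid dendritic cells (pDC), 234 mast cells and 107 tumor cells, the last being cells with keratin and other epithelial markers and no PTPRC (CD45) UMI. The remaining 7500 cells, 6000 of them from reaction 1, passed no gate and were left out of the comparisons. Untreated mice 2 and 7 stood apart, with 16 and 10 T-gated cells, which were 1.57% and 1.27% of their kept cells, against 3.87% to 43% in the other 12 mice. Those 12 mice held 3.87% to 12.9% in reaction 1 and 21.3% to 43% in reaction 2. For treatment, the count of members above 0 and their median are given with and without untreated mice 2 and 7. Treatment values of single members, of each reaction and of upstream genes include these mice.

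UMIs of the interferon-stimulated genes were counted in all gated classes, with single members near 0 in some of them. Levels are given as CPM, the UMIs of a gene per 1000000 UMIs of that class in that mouse. Each UMI comes from the 3' end of a transcript, so a level does not scale with gene length. Summed over the 43 members, the level was 9713 ± 1486 CPM in macrophages, 8418 ± 1534 in monocytes, 6972 ± 1028 in dendritic cells, 9155 ± 1800 in T cells and 9337 ± 1664 in NK cells (mean ± SD, n = 14 mice). Dendritic cells were lowest, and the other 4 classes lay within 1 SD of each other. The members that led the sum differed. In macrophages, IFI27, ISG15 and IFITM3 made up 34.8% of the summed level. In T cells, ISG15, IFITM2 and MX1 made up 25%. In tumor-gated cells, IFI27, ISG15 and IFITM3 made up 53.1%, which was the largest share of the 10 classes and states examined.

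**Figure D1:**
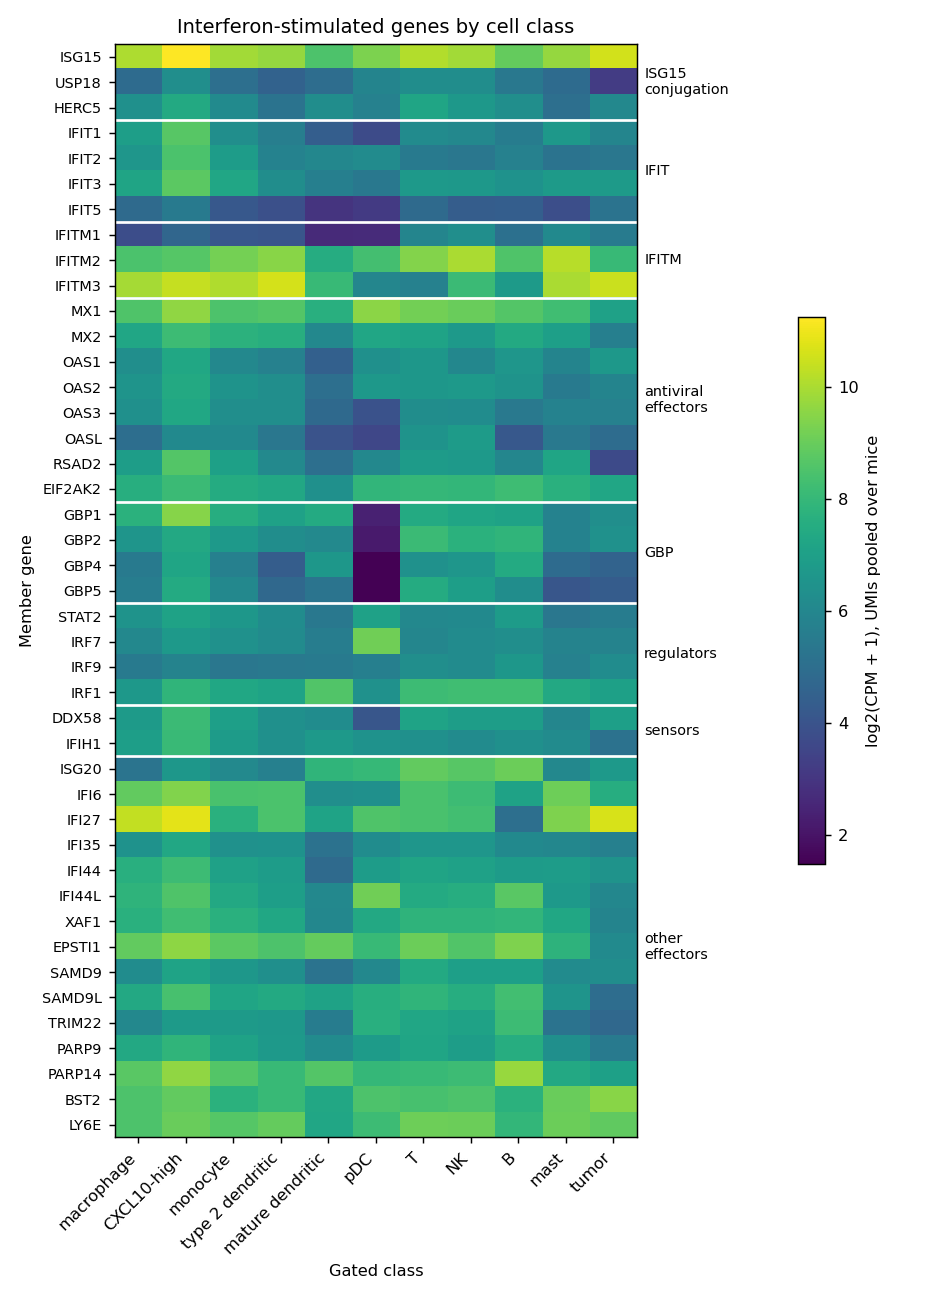
Level of each of the 43 members (rows, grouped by role) in each gated class or state (columns), as the base 2 logarithm of CPM + 1 with UMIs pooled over mice. The CXCL10-high column is brighter than the macrophage column for every member, IFITM3 is dark in T cells, B cells and pDC, IRF7 is bright in pDC, and the guanylate-binding proteins are dark in pDC.

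ISG15, the secreted and conjugated ubiquitin-like protein, was the member with the highest level averaged over the 5 main classes, at 962 CPM. It ranged from 763 ± 340 CPM in dendritic cells to 1061 ± 239 in macrophages (SD, n = 14), with single mice between 326 and 1781 CPM. Its class means differed by 1.39-fold, among the smallest ratios of the 43 members. The deconjugating protease USP18 and the ISG15 ligase HERC5 were more restricted. USP18 was at 29 ± 5.44 CPM in macrophages and 79.5 ± 22.7 in NK cells, and HERC5 was highest in T cells, at 141 ± 41.6 CPM.

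The IFITM family, membrane proteins that hinder fusion of enveloped viruses, included the member with the widest contrast between classes. IFITM3 was at 1005 ± 180 CPM in macrophages, 1062 ± 166 in monocytes and 1024 ± 350 in dendritic cells, but at 294 ± 97 in NK cells and 72.6 ± 49.4 in T cells, so that highest and lowest class differed by 14.6-fold. The highest T-cell value of any mouse, 180 CPM, lay below the lowest macrophage value, 692 CPM. IFITM2 was highest in NK cells, at 1052 ± 170 CPM, and lowest in macrophages, at 366 ± 52.3. IFITM1 was the least abundant of the family in each of these 5 classes and ran from 12.3 CPM in dendritic cells to 80.8 in NK cells. The 3 genes are close paralogs, and reads could be split between them in counting, so their individual levels are less certain than those of the other members.

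IFI27, a small mitochondrial and nuclear-envelope protein, was highest in macrophages among the 5 main classes. It was at 1356 ± 392 CPM in macrophages, with the lowest mouse at 733 and the highest at 1910, and at 201 ± 128 CPM in monocytes. The highest monocyte value, 474 CPM, was below every macrophage value. Dendritic cells held 268 ± 198, T cells 341 ± 209 and NK cells 327 ± 164 CPM. IFI6, a relative of IFI27 in the endoplasmic reticulum, had the same highest class of the 5 at a lower level, with 476 ± 94.3 CPM in macrophages and 250 ± 84.5 in dendritic cells.

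Among the direct antiviral effectors, the dynamin-like GTPase MX1 was at 549 ± 134 CPM in T cells, 532 ± 90.5 in NK cells and 370 ± 71.1 in macrophages. The RNA-dependent kinase EIF2AK2 (PKR) ran from 138 ± 26.2 CPM in dendritic cells to 250 ± 56.3 in NK cells. OASL, the member of the OAS family without synthase activity, was at 117 ± 24.8 CPM in NK cells and 30.5 ± 8.68 in macrophages. LY6E, EPSTI1, PARP14 and BST2 each differed by less than 2-fold between these classes. LY6E, a lipid-anchored surface protein, lay between 361 and 541 CPM in the 5 classes. EPSTI1 lay between 362 and 506 CPM, PARP14, an ADP-ribosyltransferase, between 244 and 424, and BST2 (tetherin), which holds budding virions at the membrane, between 214 and 366.

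ISG20, an RNA exonuclease, followed lymphoid cells. It was at 455 ± 115 CPM in T cells and 416 ± 81.7 in NK cells, but at 37.8 ± 13.8 in macrophages, a 12-fold difference between highest and lowest class. No mouse overlapped: the lowest T-cell value was 152 CPM and the highest macrophage value 68.3 CPM. The transcription factor IRF1 was ordered in a like way, from 113 ± 61.2 CPM in macrophages and 146 ± 58.2 in monocytes through 192 ± 74.9 in dendritic cells to 284 ± 65.5 in T cells and 306 ± 44.3 in NK cells. Neighbours in that order lay within 1 SD of each other, apart from dendritic and T cells.

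IRF7, the factor that amplifies type I interferon production, was the member that set pDC apart. Pooled over the 138 pDC its level was 563 CPM (95% exact Poisson interval 528 to 600, counting error only), and the 4 mice with at least 10 pDC held between 453 and 684 CPM. In the 5 main classes its mean lay between 57.5 and 86.4 CPM, and no mouse exceeded 112 CPM. MX1 was also high in pDC, at 755 CPM pooled. The guanylate-binding proteins were nearly absent there, with 7 UMIs of GBP1, 6 of GBP2 and 3 each of GBP4 and GBP5 among 1669451 pDC UMIs. No test was made for pDC, which were not among the class contrasts chosen.

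Macrophages were then compared with the other classes of the same mice, with the mouse as a block. A difference was called at an adjusted p under 0.05, from edgeR's quasi-likelihood test with Benjamini-Hochberg adjustment over all genes tested, and fold changes are on the log2 scale. Against macrophages, T cells had 15 members higher and 23 lower of 43, beside a background of 39.5% of all 11292 genes higher and 39.3% lower. The 2 cell types differed in most of the transcriptome. With the scale set by library totals in place of edgeR's TMM factors, the split was 19 higher and 15 lower. That change of scale moved the median of all genes from 0.02 to 0.29, and the members' median moved from -0.21 to 0.07. Within reaction 1 there were 15 higher and 17 lower members, and within reaction 2 there were 15 and 22.

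The genes that were higher in T cells were led by ISG20, with a log2 fold change of 3.34 ± 0.12 (SE; adjusted p = 3.31e-17 by edgeR, higher in 14 of 14 mice). IFITM1 followed at 2.06 ± 0.11, then GBP5 at 1.46, OASL at 1.35 and GBP2 at 1.15, each higher in T cells in all 14 mice. IRF1 rose by 1.14 and MX1 by 0.29, both in 14 of 14 mice. The genes that were lower in T cells were led by IFITM3 at -4.36 ± 0.18 and IFI27 at -2.37 ± 0.19 (adjusted p = 8.03e-16 and 1.67e-10 by edgeR). They included the 4 IFIT genes without exception, with IFIT2 at -1.20 and IFIT3 at -0.69, while IFIT5, at -0.31, was of the size of the change of scale. PARP14 (-1.06) and the RNA sensor IFIH1 (-0.94) were higher in T cells in 0 of 14 mice. IFI6 (-0.74), GBP1 (-0.57) and IRF7 (-0.43) were also called lower. ISG15 was called lower at -0.29 ± 0.08 (adjusted p = 0.00204 by edgeR), although it was higher in T cells than in macrophages in 5 of 14 mice when read as CPM, and with library totals as the scale its value was 0.002.

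NK cells and T cells differed in 19 of 43 members, with 9 higher and 10 lower in NK cells, where 20.3% of all 9361 genes were higher and 18.2% lower. The 3 IFITM genes were higher in NK cells. IFITM3 had a log2 fold change of 2.37 ± 0.22 (adjusted p = 5.16e-09 by edgeR, 13 of 14 mice), IFITM2 of 0.63 (14 of 14 mice) and IFITM1 of 0.32. OASL (0.37), IFI44L (0.33) and IRF7 (0.31) were higher as well. OAS1, a 2'-5' oligoadenylate synthetase, was the member lowest in NK cells relative to T cells, at -0.61 ± 0.09 (adjusted p = 9.06e-06 by edgeR), and was higher in NK cells in 1 of 14 mice. HERC5 (-0.46), GBP5 (-0.41), IFIT5 (-0.41), EPSTI1 (-0.38), GBP1 (-0.25) and IFI6 (-0.24) were also called lower. ISG15 (-0.13), MX1 (-0.03), IFIT3 (-0.01), IFI27 (0.00) and IRF1 (0.11) were not called. Within reaction 1 by itself 2 members were higher and 7 lower, and within reaction 2 there were 6 and 6.

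Monocytes, the blood-derived precursors of many tumor macrophages, had 13 members higher and 10 lower than macrophages, with a background of 31.5% of 10570 genes higher and 33.7% lower. IFI27 was lower in monocytes at -2.88 ± 0.17 (adjusted p = 1.24e-12 by edgeR) in all 14 mice. BST2 (-0.71), IFIT5 (-0.67), IFIT1 (-0.54), IFI44 (-0.50), IFI6 (-0.36) and GBP1 (-0.33) were lower too. The higher genes were led by OASL, at 1.24 ± 0.10 (adjusted p = 1.41e-10 by edgeR, 14 of 14 mice), with ISG20 at 0.90, TRIM22, a restriction factor, at 0.80, IFITM2 at 0.76 and IFITM1 at 0.52. IRF1 (0.49) and IRF7 (0.44) were called higher. ISG15 (-0.09), IFIT3 (0.06) and MX1 (0.06) did not pass the test. With library totals as the scale, 10 members were higher and 15 lower. Within reaction 1 there were 9 higher and 8 lower, and within reaction 2 there were 11 and 12.

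Dendritic cells had 4 members higher and 26 lower than macrophages, where 27.7% of 8546 genes were higher and 27.4% lower. The median of the 43 members was -0.41, against -0.02 over all genes tested. The 4 IFIT genes were all lower, with IFIT1 at -1.41 ± 0.25, IFIT5 at -1.32 and IFIT3 at -1.19, and so were IFI27 at -2.40 ± 0.23 (adjusted p = 1.36e-08 by edgeR) and RSAD2 (viperin) at -1.15. IFI6 (-0.83), GBP1 (-0.70) and ISG15 (-0.41, adjusted p = 0.0147 by edgeR) were also lower. The 4 higher genes were ISG20 at 1.85 ± 0.21, IRF1 at 0.95, IFITM2 at 0.66 and TRIM22 at 0.64. MX1 (0.19) and IRF7 (0.21) were not called. Within reaction 1 there were 3 higher and 15 lower members, and within reaction 2 there were 5 and 22. The dendritic gate held 77 type 1, 263 type 2 and 121 mature cells, and IFITM3, for example, was at 1565 CPM in type 2 and 265 CPM in mature cells when pooled.

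Tumor-gated cells could be compared in 3 mice, all treated with maraviroc, each with at least 10 such cells in the sort. In them 2 members were higher and 22 lower than in macrophages, beside 16.2% of 9440 genes higher and 22.6% lower. RSAD2 was lower by the widest margin, at 3.22 ± 5.57 CPM against 136 ± 35.4 (SD, n = 3), a log2 fold change of -5.79 ± 0.80 (adjusted p = 2.69e-09 by edgeR). GBP5 (-4.17), EPSTI1 (-3.50), SAMD9L (-2.64), MX2 (-2.44), GBP1 (-1.71), IFI6 (-1.57) and MX1 (-1.55) were lower in each of the 3 mice. IFITM1 at 1.84 ± 0.52 and BST2 at 0.86 ± 0.32 were higher. ISG15 was at 1608 ± 641 CPM in tumor-gated cells and 1166 ± 286 in macrophages, with a log2 fold change of 0.23 that was not called, and IFI27 (0.11), IFIT3 (-0.90), IRF1 (0.12) and IRF7 (-0.02) were not called. Leaving out 1 mouse at a time left between 16 and 19 members called, and without maraviroc mouse 7 GBP1 and MX1 were no longer called (adjusted p = 0.0582 and 0.0647 by edgeR). IFITM1 and BST2 were called neither without maraviroc mouse 2 nor without maraviroc mouse 7.

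Within macrophages, the members moved together in 1 state. CXCL10-high cells were macrophages with at least 3 UMIs of the chemokine gene CXCL10 and at least 5 per 10000 UMIs. There were 596 among 4114 macrophages, with at least 16 in each of the 14 mice, while 188 cells lay between 2.5 per 10000 and the gate, and 140 between the gate and 10 per 10000. CXCL10 is itself an interferon-stimulated gene, and the gate and the members were read from the same cells, so a shared direction is partly built into the choice of cells. The summed level of the members was 18630 ± 5337 CPM in CXCL10-high cells and 8293 ± 1268 in the other macrophages (SD, n = 14). All 43 members were called higher and none lower, where 9.26% of 8183 genes were higher and 9.24% lower, and DESeq2 called the same number. The median log2 fold change was 1.24 for the members and -0.01 over all genes tested. Within reaction 1 by itself 41 of 43 members were called higher, and within reaction 2 38 of 42.

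The size of the difference varied with the members' roles. The IFIT genes and the guanylate-binding proteins had the largest medians of the 8 roles, 2.57 each, although IFIT5 (0.78) and GBP2 (0.94) lay well below the rest of their families. IFIT2 was at 53.7 to 1746 CPM in CXCL10-high cells, with a median of 330, and at 10.6 to 102 CPM in the other macrophages, with a median of 47.8. The ranges over mice overlapped, but the state was higher in each of the 14 mice, and the log2 fold change was 3.06 ± 0.33 (adjusted p = 2.13e-07 by edgeR). IFIT1 (2.77), RSAD2 (2.64), GBP5 (2.64), GBP4 (2.58), GBP1 (2.56) and IFIT3 (2.37) followed, all in 14 of 14 mice. GBP1 did not overlap between the states, since it ranged from 391 to 1270 CPM in CXCL10-high cells and from 54.1 to 222 CPM in the others. The sensors DDX58 and IFIH1 had a median of 1.69. ISG15 rose from 802 ± 178 to 2767 ± 1407 CPM, a log2 fold change of 1.69 ± 0.16 (adjusted p = 3.6e-08 by edgeR). MX1, at 840.5 ± 296 CPM against 293.5 ± 56.8, and IRF1, with a log2 fold change of 1.49, were close to it. Smaller differences, all called, were seen for IFI6 (0.74), IFITM3 (0.61), BST2 (0.55), IFI27 (0.47) and IFITM2. At 0.25 ± 0.09, IFITM2 had the smallest difference of the 43 (adjusted p = 0.0463 by edgeR, 11 of 14 mice). Among the regulators, IRF7 differed by 0.89 and IRF9 by 0.41.

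Depth and marker lists were read in CXCL10-high cells and in the other macrophages. Pooled over mice, the CXCL10-high median was 9066.5 UMIs against 8197.5. Single mice could differ more and in either direction. The medians were 5104 against 3375 in maraviroc mouse 3 and 14932 against 16526.5 in maraviroc mouse 6. The summed T-cell list was at 23.2 CPM against 23.7, the NK list at 114 against 136 and the B-cell list at 7.04 against 5.41. The tumor list was at 100 against 87.9, the monocyte list at 2311 against 2212, and the macrophage list at 7910 against 7424. The part of depth and of these lists in the result was not tested.

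**Figure D2:**
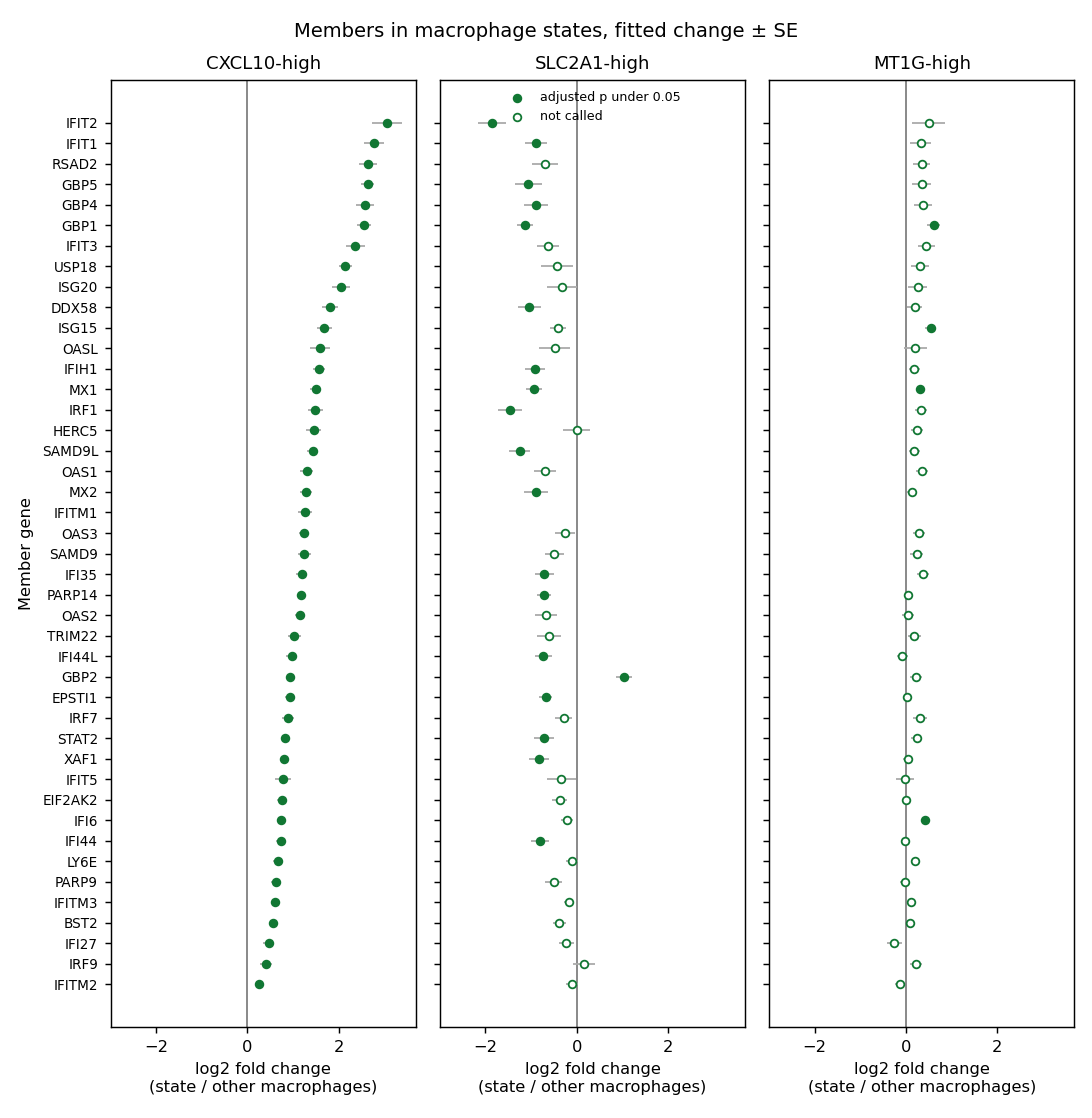
Fitted log2 fold change of each member (rows, ordered by the left panel) in CXCL10-high, SLC2A1-high and MT1G-high macrophages against all other macrophages; points are estimates, bars are standard errors, and filled points passed an adjusted p under 0.05 by edgeR. The 43 points of the left panel lie right of 0, most points of the middle panel lie left of it apart from GBP2, and the right panel has 35 of 42 points right of 0, with a median of 0.22 and 4 filled points.

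SLC2A1-high macrophages, gated on the glucose transporter gene SLC2A1 and the hypoxia-responsive genes HILPDA and ADM, differed in the opposite direction. The 173 cells gave 10 mice with at least 10 cells. In them 18 of 42 tested members were lower and 1 higher, beside 5.79% of 8271 genes lower and 8.8% higher, and DESeq2 called 21 lower and 1 higher. The median of the members was -0.65, against -0.06 over all genes. IFIT2 was at 20.1 ± 18 CPM against 95.1 ± 35.1 in the other macrophages of these mice (SD, n = 10), a log2 fold change of -1.87 ± 0.31 (adjusted p = 8.41e-05 by edgeR), and was lower in 10 of 10 mice. IRF1 (-1.47), SAMD9L (-1.25), GBP1 (-1.14), GBP5 (-1.06) and MX1 (-0.94) were lower. ISG15 (-0.41), IFIT3 (-0.63), IFI27 (-0.22), IFI6 (-0.21) and IRF7 (-0.28) did not pass. GBP2 was the exception among the guanylate-binding proteins, at 174 ± 70.8 CPM against 94.5 ± 21.1, a log2 fold change of 1.04 ± 0.18 (adjusted p = 0.000154 by edgeR) and higher in 9 of 10 mice. Only 5 of the SLC2A1-high cells were also CXCL10-high. When CXCL10-high cells were left out of both sides, 13 members were lower and 1 higher, with a median of -0.49; IRF1 and MX1 were then at -1.07 and -0.89, while GBP1, at -0.49, was no longer called. Within reaction 1 there were 8 lower and 1 higher members, and within reaction 2 there were 13 and 1. With library totals as the scale 30 were lower and 1 higher, and the median of all genes was then -0.25. The macrophage marker list was at 6896 CPM in SLC2A1-high cells against 7528, and the monocyte list at 2535 against 2214. The type 2 dendritic list was at 13.4 CPM against 46.8, the NK list at 98.9 against 134 and the T-cell list at 17.7 against 23.9. The part of these lists in the result was not tested.

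MT1G-high macrophages, gated on 3 metallothionein genes, numbered 353. In them 4 of 42 tested members were higher and none lower by edgeR, where 3.53% of 8019 genes were higher and 3.42% lower, 11 members had an unadjusted p under 0.05 beside 21.1% of all genes tested, and DESeq2 called 5 higher and none lower. The 4 were GBP1 (0.61 ± 0.15), ISG15 (0.55 ± 0.12), IFI6 (0.41 ± 0.09) and MX1 (0.32 ± 0.09), while IFIT3 (0.45), IRF1 (0.33), IRF7 (0.31) and IFI27 (-0.25) were not called. Of these cells, 89 were also CXCL10-high. With CXCL10-high cells left out of both sides no member was called, and the median over the members was 0.06 in place of 0.22. No member was called either in the mice with at least 20 MT1G-high cells, where the median was -0.01. The monocyte marker list was at 3112 CPM in MT1G-high cells against 2140, and its part in these values was not tested.

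The genes upstream of these members were counted from a list of 46 interferons, receptors, signal transducers, sensors and chemokines, 44 of which were in the files. Interferon transcripts were scarce apart from interferon gamma. IFNG had 5073 UMIs in all kept cells, 2625 of them in T cells, 1599 in NK cells and 750 in cells that passed no gate. Apart from that list, every interferon gene in the matrices was counted, and the 20 other than IFNG had 156 UMIs together. IFNB1 had 64 of these, 35 in cells that passed no gate and 19 in monocytes. IFNL1 had 63, of which 32 were in NK cells. Of the interferon alpha genes counted, only IFNA2 (4 UMIs) and IFNA14 (1 UMI) were detected among the 146469683 UMIs of all kept cells. A transcript that is made briefly or by few cells could be missed at this depth. The sort kept human CD45+ cells and reads were aligned to the human genome. Interferon transcripts of mouse host cells and of most tumor cells were therefore not surveyed.

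The interferon gamma receptor was a myeloid transcript. IFNGR1 was at 177 ± 22.8 CPM in macrophages, 236 ± 23.6 in monocytes and 34.5 ± 11.2 in T cells, and IFNGR2 was at 207 ± 20.6, 284 ± 29.8 and 15.6 ± 6.72 CPM (SD, n = 14). In T cells IFNGR2 was lower than in macrophages by edgeR at -4.06 ± 0.10 and IFNGR1 at -2.51 ± 0.10. The type I receptor chains differed from each other, because IFNAR1 was lower in T cells at -1.31 ± 0.08 whereas IFNAR2, at 0.15 ± 0.08, was not called. None of the tested receptor chains was called in CXCL10-high cells, with IFNAR1 at -0.02, IFNAR2 at -0.05, IFNGR1 at -0.20 and IFNGR2 at 0.11. Over the list, 11 of 28 tested genes were called higher and 0 lower in that state by edgeR, and CXCL10, the gate gene, was 1 of the 11. In T cells against macrophages 8 of 31 were higher and 19 lower, and in dendritic cells 8 of 29 were higher and 10 lower.

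Maraviroc was compared with no treatment in each of the 5 main classes, with the mouse as the replicate (7 against 7) and the reaction as a term. None of the 43 members was called in any class by edgeR with its filter on low counts. In macrophages 0 of 11112 genes were called (0%), in monocytes 0 of 9297 (0%), in dendritic cells 0 of 5934 (0%), in T cells 0 of 10387 (0%) and in NK cells 0 of 8571 (0%). At an unadjusted p under 0.05, 4 members passed in macrophages, 1 in monocytes, 2 in dendritic cells, 0 in T cells and 1 in NK cells, while the corresponding shares over all genes tested were 3.64%, 3.94%, 8.36%, 5.3% and 3.26%. DESeq2 called no member in any class, and called 3 genes in all, in T cells. With every gene of at least 1 count tested by edgeR, IFI27, IFIT2 and IFIT3 were called in monocytes and IFI27 in dendritic cells. The absence of calls in these 2 classes thus depended on the filter. The share of all genes called without it is not given here.

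In macrophages the members nevertheless lay mostly on 1 side of 0. The fitted change was above 0 for 42 of 43 members, with a median of 0.19, where 50.5% of all genes tested were above 0 with a median of 0.00. The members vary together across mice, so that 43 values on 1 side are not 43 separate observations. ISG15 was at 750, 964 and 1448 CPM (lowest, median and highest) in untreated mice and at 850, 1011 and 1419 CPM in maraviroc mice. The groups overlapped almost entirely, and the log2 fold change was 0.16 ± 0.11 (adjusted p = 1 by edgeR). MX1 ran over 223, 356 and 403 CPM untreated and 310, 406 and 502 CPM with maraviroc, a difference of 0.21 ± 0.13. IFI27 was at 733, 1432 and 1736 CPM against 1026, 1575 and 1910, a difference of 0.22 ± 0.17. Of these 3 genes, each had its lowest mouse in the untreated group, and none separated the groups. IFI6 (0.08), IFIT3 (0.11), IRF7 (0.12), IRF1 (0.16) and GBP1 (0.18) had standard errors between 0.11 and 0.32. The extremes were GBP5 at -0.10 and ISG20 at 0.50 ± 0.15. ISG20 was at 17.3, 29.4 and 48.5 CPM untreated and 26.9, 39.6 and 68.3 CPM with maraviroc, with an unadjusted p of 0.00434 by edgeR and an adjusted p of 1. The sensor IFIH1 was at 78.5, 114 and 131 CPM against 117, 136 and 161, a difference of 0.33 ± 0.10 (unadjusted p = 0.00524, adjusted p = 1 by edgeR). It and ISG20 had the lowest unadjusted p-values of the 43 in macrophages.

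This one-sidedness moved with the 2 untreated mice that held few T cells. In macrophages the summed level of the members was 6525 CPM in untreated mouse 2 and 7529 in untreated mouse 7, the lowest of the 14, whereas the other 12 mice lay between 8422 and 11680. The same mice were lowest in T cells, at 5822 and 5737 CPM against 7969 to 11150, and in NK cells, at 6016 and 7102 against 7514 to 11550. In monocytes they held 7031 and 5975 CPM against 6573 to 10580, and in dendritic cells they ranked among the 4 highest, at 8347 and 7747 CPM. These dendritic values came from 13 and 19 cells, of which 1 and 0 were mature. Pooled over mice, mature cells held 4739 CPM, against 6941 CPM for the whole dendritic gate. The part of cell numbers and of the mix of dendritic cells in this rank was not tested. Untreated mice 2 and 7 also had the lowest share of CXCL10-high cells among macrophages, 6.2% and 5.47%, where the other mice had 9.88% to 32.3%. Without these mice 30 of 43 members were above 0 in macrophages, with a median of 0.08. Since they were the lowest of the 14 and both untreated, leaving both out raised the untreated level. With each of the 14 mice left out in turn, 38 to 43 members stayed above 0, with medians from 0.13 to 0.23. Both mice were untreated, and the other untreated mice held 8788 to 11180 CPM in macrophages, with 195 to 611 T-gated cells. No maraviroc mouse held so few T-gated cells, so treatment could not be compared among mice with so few. What set untreated mice 2 and 7 apart was not tested. Maraviroc mice 1 and 2, both of reaction 1, had the next lowest T-cell shares, 3.87% and 6.43% of kept cells. Kept cells include those that passed no gate, which were mostly from reaction 1. Their summed levels were 10970 and 11680 CPM in macrophages and 11150 and 10840 CPM in T cells. The relation of T-cell share to the summed level was not tested.

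The other classes showed smaller or opposite shifts. In monocytes 36 of 43 members were above 0, with a median of 0.11, and without both mice 23 were, with a median of 0.01. In NK cells the counts were 33 of 43 (median 0.10) with all mice and 18 (median -0.04) without both. In T cells they were 24 of 43 (median 0.02) and 16 (median -0.05). Dendritic cells had 17 of 40 tested members above 0 with a median of -0.12, and 23 with a median of 0.06 without both mice, so the sign of the median turned in dendritic, T and NK cells. Single mice moved these medians as well. In monocytes the median was 0.04 without untreated mouse 7 and 0.05 without maraviroc mouse 6, and over the 14 mice left out in turn it ran from 0.04 to 0.20. The dendritic median turned to 0.06 without untreated mouse 7 and to 0.02 without maraviroc mouse 7. The T-cell median ran from -0.03 to 0.07 and was below 0 without untreated mouse 2, 4 or 7 or maraviroc mouse 1 or 4. The NK median ran from 0.06 to 0.17.

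**Figure D3:**
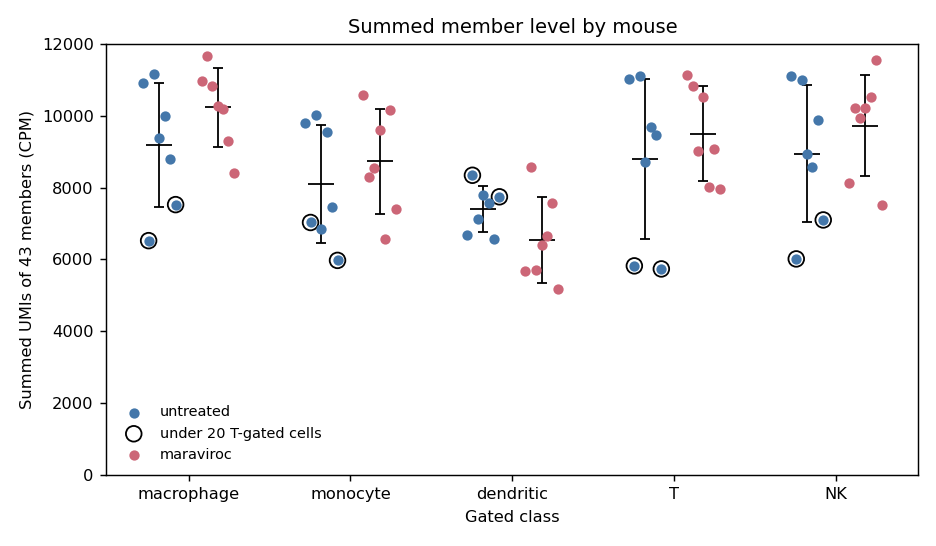
Summed level of the 43 members in CPM (vertical axis) in each of the 14 mice, by gated class and treatment; horizontal bars are means, vertical bars 1 SD (n = 7), and circled points are the 2 untreated mice with under 20 T-gated cells. The circled mice are the lowest in macrophages, T cells and NK cells and are high in dendritic cells, and the groups overlap in every class.

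The widest single changes outside macrophages were not called with the filter, and the ranges of the 2 groups overlapped for every member. IFI27 in dendritic cells was at 108, 306 and 725 CPM in untreated mice and 50.6, 166 and 299 CPM with maraviroc, a log2 fold change of -1.05 ± 0.41 (adjusted p = 0.545 by edgeR). The highest maraviroc mouse thus lay below the untreated median. The change was -0.88 in reaction 1 and -1.21 in reaction 2. Without the filter, IFI27 was called in dendritic cells, and IFI27, IFIT2 and IFIT3 in monocytes. In monocytes IFI27 was at -0.58 ± 0.39 and IFIT2 at 0.68 ± 0.38. In NK cells IFIT2 was at 0.52 ± 0.45, and in T cells the extremes were IFIT2 at -0.35 and IFITM3 at 0.31. For ISG15 the changes were 0.27 ± 0.17 in monocytes, -0.29 ± 0.22 in dendritic cells, 0.16 ± 0.17 in T cells and 0.13 ± 0.15 in NK cells, none of which was called. For MX1 they were 0.19 in monocytes, -0.14 in dendritic cells, 0.03 in T cells and 0.19 in NK cells. IFI6 (0.06, -0.33, 0.03 and 0.19), IFIT3 (0.47, -0.19, 0.03 and -0.01), GBP1 (0.24, 0.28, 0.15 and -0.01), IRF1 (-0.02, 0.55, 0.25 and -0.04) and IRF7 (0.11, -0.18, -0.19 and 0.00), in the same order of classes, were not called either, nor was IFI27 in T cells (-0.20) or NK cells (0.18).

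**Figure D4:**
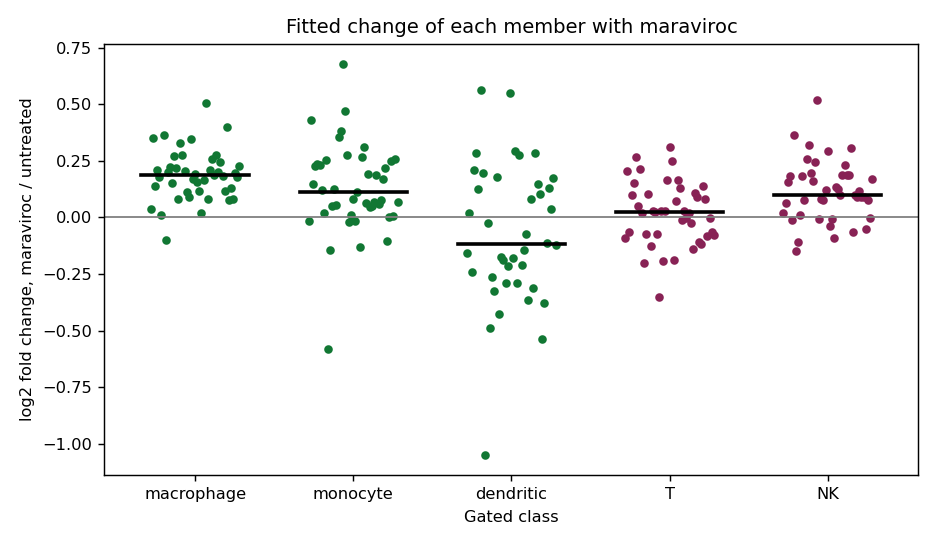
Fitted log2 fold change of each tested member with maraviroc, 1 point per member, by gated class; the bar is the median. The macrophage points lie above 0 apart from GBP5, the dendritic points spread widest, from -1.05 (IFI27) to 0.56 (GBP4), and no point passed an adjusted p under 0.05 by edgeR.

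Both reactions gave the same sign of the median in macrophages, at 0.24 in reaction 1 (39 of 43 members above 0) and 0.11 in reaction 2 (40 of 43). In monocytes the medians were 0.06 and 0.16, in dendritic cells -0.06 and -0.15, in T cells 0.06 and 0.01, and in NK cells 0.05 and 0.20. Each reaction held 1 of the 2 untreated mice with few T cells, mouse 2 in reaction 1 and mouse 7 in reaction 2. The medians within reactions include these mice, so their shared sign is not independent of them. By edgeR, no gene and no member was called for a difference in treatment effect between reactions in any of the 5 classes, and no member had an unadjusted interaction p under 0.05, where 9.02% of all genes tested did in macrophages, 6.53% in monocytes, 3.74% in dendritic cells, 3.07% in T cells and 3.71% in NK cells. Leaving CXCL10-high cells out of the macrophages gave 39 of 43 members above 0 with a median of 0.13. In the list of upstream genes 0 were called in any class by edgeR, with 1 of 31 at an unadjusted p under 0.05 in macrophages, 0 of 29 in monocytes, 2 of 23 in dendritic cells, 0 of 28 in T cells and 1 of 24 in NK cells. In macrophages IFNAR1 was at -0.12, IFNAR2 at -0.02, IFNGR1 at 0.00 and IFNGR2 at -0.06.

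Levels in different classes of the same mouse were compared for 5 members, in T cells and in NK cells against macrophages, over 14 mice and on the log2 scale, as 10 relations with permutation tests of 100000 resamples. A mouse with more MX1 in macrophages had more in T cells, with r = 0.864 and rho = 0.798 (permutation p adjusted over the 10 relations 0.0008 and 0.00425), r = 0.908 within reaction 1 and 0.838 within reaction 2, and r = 0.783 without the 2 mice farthest from the median. IFIT3 gave r = 0.867 and rho = 0.837 (adjusted permutation p = 0.0008 and 0.0039), with 0.828 and 0.871 within the reactions and 0.784 without the 2 farthest mice. ISG15 gave r = 0.721 and rho = 0.758 (adjusted permutation p = 0.00818 and 0.0085), with 0.932 and 0.76 within the reactions and 0.633 without the 2 farthest. For IFI6 r was 0.633 and rho 0.675 (adjusted permutation p = 0.0228 and 0.0248), with 0.782 within reaction 1 and 0.304 within reaction 2. For XAF1, a proapoptotic effector, r was 0.822 and rho 0.53 (adjusted permutation p = 0.00818 and 0.0902), and without the 2 farthest mice r fell to 0.401, so that this relation rested on them. Between NK cells and macrophages, r was 0.614 for MX1 (rho 0.437, adjusted permutation p = 0.025 and 0.152; 0.931 and 0.231 within the reactions), 0.776 for XAF1 (rho 0.512, adjusted permutation p = 0.00818 and 0.0922; 0.38 without the 2 farthest), 0.548 for IFI6, 0.353 for IFIT3 and 0.229 for ISG15 (adjusted permutation p = 0.0561, 0.243 and 0.425). The relation of MX1, IFIT3 and ISG15 between T cells and macrophages was thus also positive within each reaction, with unadjusted permutation p from 0.00366 to 0.0405. No relation with NK cells held under each of these checks. Each reaction held 1 of the 2 untreated mice with few T cells, which were low in both classes. The relations without both of these mice were not computed. The cells of 1 mouse share a tumor, a reaction and a hashtag.

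**Figure D5:**
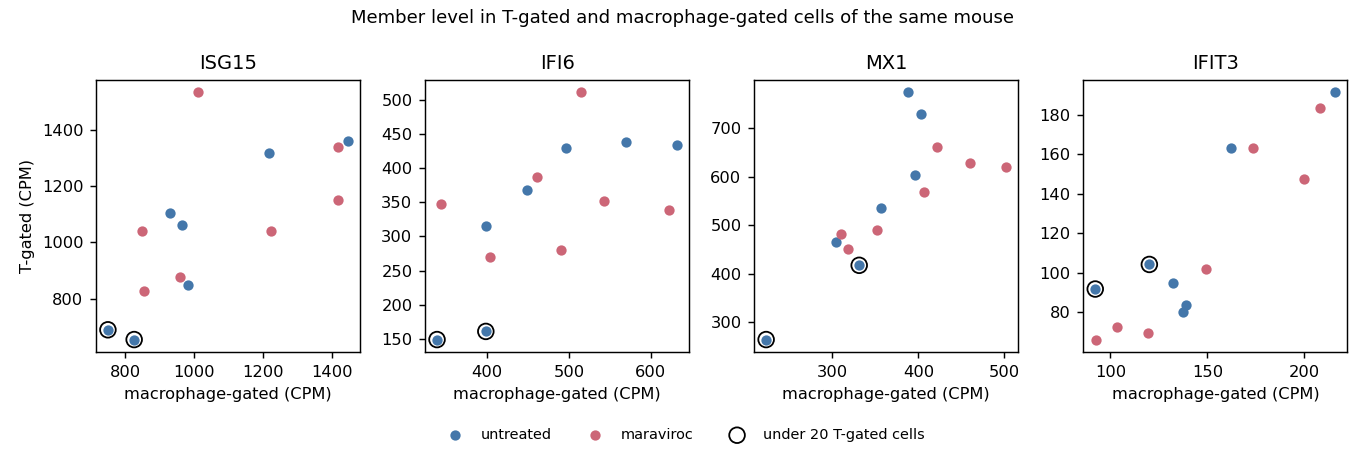
Level of ISG15, IFI6, MX1 and IFIT3 in T-gated cells (vertical axis, CPM) against macrophage-gated cells (horizontal axis, CPM) of the same mouse, 14 mice, colored by treatment, with the 2 mice that held under 20 T-gated cells circled. For MX1 and IFIT3 the points rise together (r = 0.864 and 0.867 on the log2 scale), and both treatments lie along the same range.

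Over 70 points, each 1 class in 1 mouse, the member whose level was most like the sum of the other members was ISG15 (r = 0.784), followed by RSAD2 (0.781) and IFI44L (0.778), while IFITM3 (-0.267), IRF1 (0.0727) and ISG20 (0.0817) were least like it. Among 9190 other genes the 5 most like the summed members over the same points were DTX3L (r = 0.83), APOL6 (0.771), GIMAP4 (0.715), CASP4 (0.704) and HLA-E (0.694). Points of 1 mouse share a library, so these values are descriptions over classes and mice and have no test.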

How the data were processed

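Live human CD45+ tumor cells of 14 hashtagged mice were sequenced in 2 droplet reactions (3' chemistry). The authors processed the reads with Cell Ranger 9.0.1 on GRCh38 and deposited raw UMI counts per barcode, with no normalization. Barcodes with more than 600 and at most 6000 genes and under 12.5% mitochondrial UMIs were kept and assigned to mice by HTODemux (Seurat 5.3.0, quantile 0.99), with treatment taken from the hashtag names; droplets with 2 hashtags were removed, no further doublet caller was run, and free RNA was not subtracted. Marker gates were set after marker counts were seen. UMI counts were summed per mouse and class (at least 10 cells) and tested with edgeR 4.0.16 (TMM, quasi-likelihood, Benjamini-Hochberg over all genes) in R 4.3.3, with DESeq2 1.42.0 as alternative; treatment fits had the reaction, class contrasts the mouse, as a term. Standard errors are the absolute log2 fold change over the square root of F. In a test on simulated counts, 200 genes were given a log2 difference of 1. Of these edgeR found 88.5% for the treatment comparison in macrophages (10989 genes), 84% in T cells (10217) and 93.5% for NK against T cells (9235). It also called 7, 13 and 11 unchanged genes. The simulation held no differences between reactions or mice other than library size. The members' medians under treatment were smaller than 1, so it does not show whether changes of that size could be found. The precision of each value is limited by 14 mice and by 10 to 611 T-gated or 62 to 490 macrophage-gated cells per mouse.

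The members, gene lists and tests were chosen with earlier results of these data known. All 43 members were counted. Named with values were those called under treatment, the 5 called members with the largest change in each direction of a contrast, the 12 with the highest mean level, and ISG15, IFI6, MX1, IFIT3, IFI27, GBP1, IRF1 and IRF7 throughout; other members, such as OAS1, USP18, HERC5, IFIH1, IFITM1 and GBP2 to GBP5 in single places, were named after their values were seen. Upstream genes were counted, with values for receptors and the detected interferons; some results are not reported here.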

Additional observations from a re-analysis of the deposited data

Results flagged for a closer look

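Single mice stood apart from the other 6 of their treatment group in 8 of 80 groups examined (8 members, 5 classes, 2 treatments) by Dixon's test at 95%, where chance gives about 1 in 20. Maraviroc mouse 6, which had 62 macrophage-gated cells and the highest share of CXCL10-high macrophages (32.3%), was highest for GBP1 in macrophages (429.5 CPM, others 156 to 250) and monocytes (400.8 CPM, others 96.9 to 199), and for IRF1 in macrophages (295.6 CPM, others 71.9 to 115) and monocytes (270.6 CPM, others 101 to 160). Untreated mouse 2, one of the mice with few T cells, was highest in dendritic cells for ISG15 (1781 CPM, others 619 to 839) and GBP1 (291.8 CPM, others 49 to 141). In NK cells, MX1 was lowest in maraviroc mouse 7 (400.7 CPM, others 547 to 634), and IFIT3 was highest in untreated mouse 3 (275.1 CPM, others 38.8 to 137). Whether cell numbers or cell states account for these values was not tested.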

How the results depend on the processing

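Among recomputed counts of called members, 186 stayed within 1.5 times the reported count and 16 did not. Most of the 186 were treatment counts of 0 that stayed at 0, so the split says little about the class contrasts. Among recomputed values of single members, 361 kept direction and call, 42 kept direction only and 1 reversed. With every gene of at least 1 count tested, 3 members were called for treatment in monocytes (IFI27, IFIT2, IFIT3) and 1 in dendritic cells (IFI27), and 32 in SLC2A1-high macrophages. In the filtered fits IFI27 was lower with maraviroc in both classes, and IFIT2 and IFIT3 were higher in monocytes, none of them called. The share of all genes called in the unfiltered fits is not given here. Without the mouse as a block, NK against T cells gave 9 and MT1G-high macrophages 1. Reaction 1 by itself gave 9 for NK against T cells, 18 for dendritic cells, 9 for SLC2A1-high and 0 for MT1G-high macrophages; reaction 2 gave 12 for NK against T cells and 2 for MT1G-high. Stricter gates gave 10 for SLC2A1-high and 2 for MT1G-high. Library totals as the scale gave 31 for SLC2A1-high, and reversed ISG15 in T cells against macrophages to 0.002086 (adjusted p = 0.98 by edgeR). MT1G-high macrophages gave 0 in mice with at least 20 such cells and 0 without CXCL10-high cells. Leaving out each mouse gave 0 to 0 members called for treatment in each of the 5 classes, and 16 to 19 for tumor-gated cells. Fewer mice enter the fits within a reaction or with at least 20 cells; otherwise the cause was not tested. The analyses with library totals, at least 20 cells, CXCL10-high cells left out, the mice with few T cells left out, or a tumor mouse left out were chosen after seeing the data. No paired analysis was possible because each mouse belongs to 1 treatment and the replicate numbers only name mice.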
